A study of Mus musculus with 12 samples.

Results

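Chondroitin sulfate is the sugar chain that loads the cartilage proteoglycans, and the genes described here make it and sulfate it. They are 10 of the 19406 genes named on the array, chosen by name: Slc26a2, Papss1, Papss2, Ugdh, Xylt1, Csgalnact1, Chsy1, Chpf, Chst11 and Chst3. Every probe annotated to them on the array was taken, 15 of the 46643 probes, without use of their values. The genes themselves were chosen with earlier results of these data known. Expression was measured with Illumina MouseWG-6 v1.1 BeadChips in RNA of E16.5 mouse embryos (embryonic day 16.5). S1Pcko embryos carried S1P f/f together with Col2-Cre, a Cre transgene driven by a collagen type II promoter and thus active in chondrocytes, so that Mbtps1, the gene of site-1 protease (S1P), is deleted in these cells. Their WT littermates carried either 2 floxed alleles without Cre or a single floxed allele, with or without Col2-Cre, so that controls too held floxed alleles and some held Cre. Per genotype, cartilage of the chondroepiphysis was hybridized on 2 arrays, long bones taken whole on 3, and calvaria, the skull vault bones that ossify without a cartilage model, on 1. Entire long bones of WT hold cartilage, bone, marrow and attached tissue. For S1Pcko the study describes a cartilaginous shaft without endochondral bone, and more cortical bone. Whole long bones of the genotypes thus differ in tissue make-up, which cannot be told apart from a change within cells. The labels do not say whether embryos were pooled.

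A chondroitin sulfate chain starts on a serine of a core protein, to which xylose is added, and grows by alternating glucuronic acid and N-acetylgalactosamine. Sulfate taken up by the cell is activated to the donor PAPS and moved onto the N-acetylgalactosamine by sulfotransferases of the Golgi. In growing cartilage the chains, most of them sulfated at the 4 position, hold the water that lets the tissue bear load, and in humans defects of SLC26A2, PAPSS2, CHST3 and CHST11 are known causes of skeletal disease.

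Arrays are named here by the number in their titles. The titles mark arrays 1927, 1928, 1929 and 1930 as a second amplification of RNA, and arrays 1923 and 1929 share the rest of their title, so they come from 1 extract. In the same way the 2 cartilage arrays of a genotype share their title apart from that mark, and array 1930 is a second amplification of the extract of array 1922 or 1924. The legends of the study leave 1 embryo per genotype for cartilage. Cartilage is thus 1 extract per genotype, whose spread is technical alone, and the 3 long bone arrays of a genotype come from at most 2 extracts. The p values measure the spread between these arrays and not between embryos. Detected probes (detection p under 0.05) numbered 20555 to 21978 on an array, and the number of arrays limits the precision. Neither Mbtps1 probe passed the thresholds in either tissue (lowest adjusted p = 0.623), and since the deleted exon is not named, they do not check the genotype. All values below are log2 intensities after background correction and quantile normalization, and they compare groups for 1 probe, never probes with each other. A change was called when the limma p adjusted over all 23744 tested probes was under 0.05 and the change was at least 2-fold.

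The chondrocyte markers fixed for the check of the tissue labels, of which 8 of 10 were tested, were detected on all arrays. Their summed level on the linear scale was 106900 and 109700 in WT cartilage, 91160 and 90770 in S1Pcko cartilage, and 30710 and 28420 in WT and S1Pcko calvaria. In long bone it was 58100, 61350 and 99110 in WT and 66350, 90340 and 91400 in S1Pcko. Within WT long bone, array 1921 thus stood apart from arrays 1923 and 1929, and within S1Pcko long bone array 1922 stood apart from arrays 1924 and 1930. Osteoblast markers (6 of 9 tested) ranged from 14340 to 23980 in WT cartilage and from 22200 to 25990 in S1Pcko cartilage. Skeletal muscle markers (9 of 9 tested) ranged from 56820 to 64510 over the 4 cartilage arrays and from 35080 to 105400 in S1Pcko long bone. There array 1930 (36800) lay near array 1924 (35080) and far from array 1922 (105400). Macrophage and granulocyte markers had 468.7, 466.2 and 3066 on these arrays in the same order. By these levels array 1930 is nearer to the extract of array 1924, though its title does not name the extract. All 9 muscle genes and 5 of the 6 osteoblast genes were detected on each cartilage array. In such bulk samples, fewer cells of a type and less RNA per cell cannot be told apart.

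Of the 15 probes, 12 were tested, being detected on 2 or more of the 10 arrays of cartilage and long bone, and they cover 9 of the 10 genes. The single probe of Ugdh, which encodes UDP-glucose dehydrogenase, the source of UDP-glucuronic acid, was not detected on any of the 12 arrays. Its group means lay between 4.46 and 4.62, at the background, and nothing is said of this gene below. A further probe of Papss2 and of Slc26a2 was likewise not detected on any array.

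**Figure D1:**
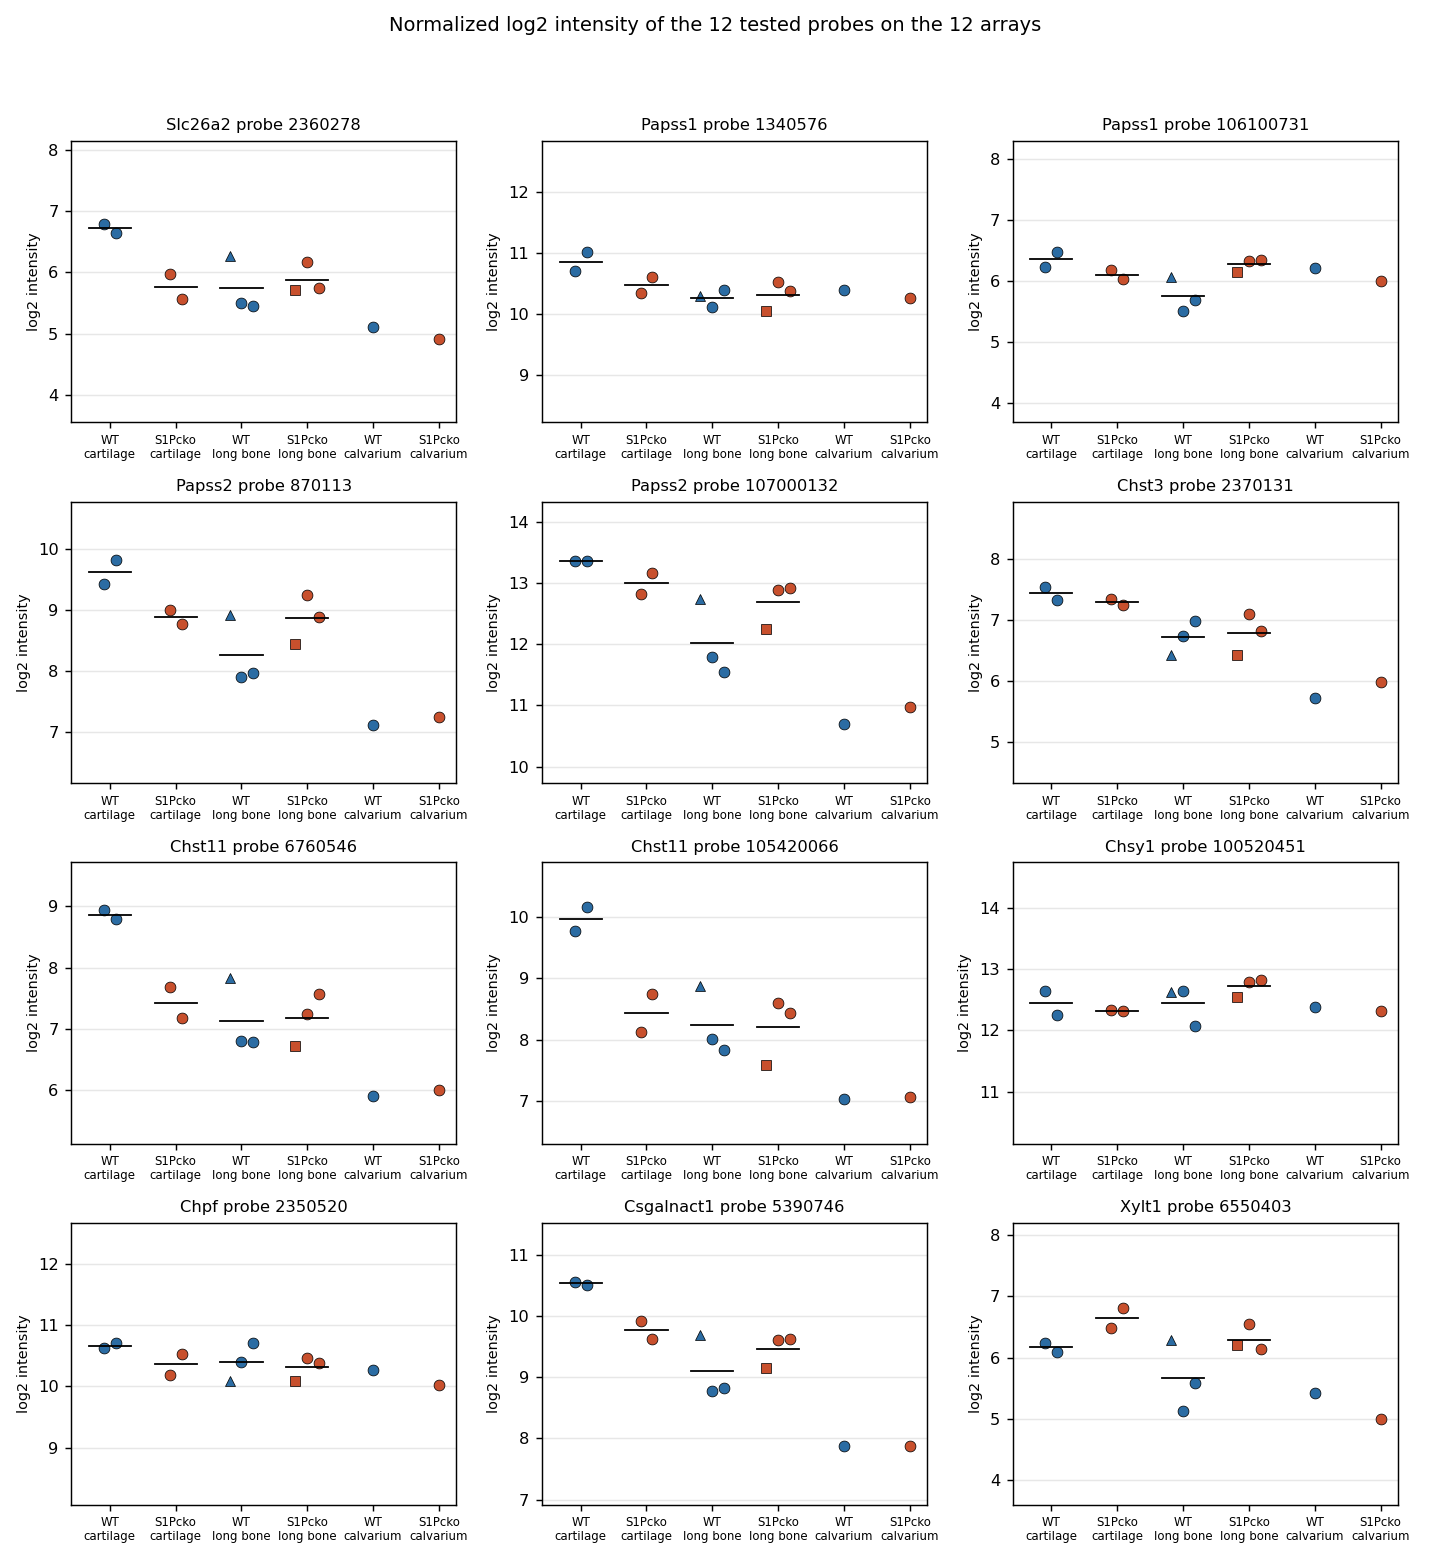
Normalized log2 intensity (y axis, every panel spans the same range) of the 12 tested probes in the 6 groups (x axis), with 1 point per array in blue for WT and red for S1Pcko, a line at the mean of groups with over 1 array, a triangle for array 1921 and a square for array 1922. By group mean, Chst11, Csgalnact1, Papss2, Slc26a2 and Chst3 were highest in WT cartilage and lowest in calvaria. Chpf had the same highest and lowest groups but lay between 10.03 and 10.71 on all arrays, and Chsy1 lay between 12.07 and 12.83.

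In cartilage, Chst11 was the only one of the 9 genes that passed the thresholds between S1Pcko and WT, and it fell on both of its probes, by 2.89-fold and 2.72-fold. Chst11 encodes chondroitin 4-O-sulfotransferase 1, the main enzyme of 4-sulfation in cartilage. These 2 of 12 probes stand beside 1.34% of all tested probes that were called lower in the same comparison. The promoter of Chst11 is shown because it is the only member called in both the genotype and the tissue comparison. The RefSeq window covers 250 bases before to 50 after the start, at chr10:82985247-82985546 on the + strand of GRCm38.p6. Capitals mark matches to the motifs described after the Papss2 sequences.
Chst11: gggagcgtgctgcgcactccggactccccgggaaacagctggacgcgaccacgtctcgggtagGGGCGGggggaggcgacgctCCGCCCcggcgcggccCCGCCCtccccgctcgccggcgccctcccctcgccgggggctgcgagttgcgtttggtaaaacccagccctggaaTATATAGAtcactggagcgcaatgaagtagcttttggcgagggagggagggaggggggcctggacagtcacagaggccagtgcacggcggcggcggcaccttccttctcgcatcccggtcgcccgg

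For Chst11 probe 105420066, the log2 intensities were 9.78 and 10.16 in WT cartilage and 8.13 and 8.75 in S1Pcko cartilage. Both S1Pcko arrays were below both WT arrays. The log2 difference was -1.53 (standard error 0.39, adjusted p = 0.0473, limma, n = 2 arrays per genotype). For probe 6760546 they were 8.94 and 8.80 in WT and 7.68 and 7.17 in S1Pcko, again without overlap. Here the log2 difference was -1.44 (standard error 0.36, adjusted p = 0.0447). Across the 12 arrays the 2 probes followed each other (Pearson r = 0.952), sharing the same RNA.

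The fall of Chst11 lay close to the threshold. It kept its direction under all alternatives, from -1.18 to -1.65 with other settings and from -1.19 to -1.84 with an array left out, but its call did not hold under all of them. Leaving out a cartilage array gave adjusted p values, for probes 6760546 and 105420066 in this order, of 0.218 and 0.148 without array 1919 (WT), 0.155 and 0.223 without array 1927 (WT), 0.091 and 0.228 without array 1920 (S1Pcko), and 0.262 and 0.105 without array 1928 (S1Pcko). Long bone arrays enter through the shared estimate of the spread. The call was also lost with the authors' processed values (0.0801 for both probes), with no filter on detection (0.11 and 0.119) and with the replicate number as a block (0.0698 and 0.0636), which in cartilage is the amplification round. Without array 1923 the adjusted p values were 0.0541 and 0.0649, without array 1924 they were 0.0655 and 0.0552, and without array 1930 probe 105420066 had 0.0648. Without arrays 1921 and 1922 together they were 0.00163 and 0.00223. In a further setting the amplifications were averaged for arrays 1919 and 1927, 1920 and 1928, and 1923 and 1929. Array 1930 was left out, since its extract is not named. The call was lost in this fit, which leaves 1 array per genotype in cartilage. This setting and the first round alone ended all 21 calls of members and pathway genes given here and below (adjusted p from 0.0833 to 0.693).

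The other members in cartilage were lower in S1Pcko for the most part, but did not pass the test. Of the 12 probes, 11 had a negative log2 difference, and the median over the members' probes was -0.37 beside 0.02 over all tested probes. In 9 probes both S1Pcko arrays were below both WT arrays, where 25% of all tested probes showed that pattern with 2 arrays per genotype. The chondrocyte marker level given above was lower in S1Pcko cartilage as well, and 7 of its 8 genes had a negative log2 difference, none past the thresholds, with a median of -0.56. Of the hypertrophic markers, Ihh was called lower (-1.85). Markers of other cells moved between the genotypes too. From WT to S1Pcko cartilage, the summed level of epidermis markers went from 1108 and 1058 to 247.9 and 205.3, with Lor called lower (-3.42), and that of macrophage and granulocyte markers from 1023 and 883.3 to 449.4 and 412.1. Osteoclast markers went from 2604 and 2356 to 4519 and 4093 with none called, and the osteoblast marker Ibsp was called higher (2.08). The part of these shifts in the members' values was not tested.

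Among the genes of sulfate supply, Slc26a2, the sulfate transporter of the plasma membrane, had 6.79 and 6.65 in WT cartilage and 5.98 and 5.56 in S1Pcko cartilage. The groups did not overlap, with a log2 difference of -0.95 (standard error 0.28, adjusted p = 0.0771). This probe is dim, and it was not detected on the array of S1Pcko calvaria. Papss2, the PAPS synthase that dominates in cartilage, had 13.36 and 13.35 in WT and 12.83 and 13.16 in S1Pcko on probe 107000132. That is a log2 difference of -0.36 (95% interval -1.13 to 0.40, adjusted p = 0.622). Its probe 870113 had 9.41 and 9.82 in WT and 8.99 and 8.77 in S1Pcko, a difference of -0.73 (95% interval -1.48 to 0.01, adjusted p = 0.252). Papss1, the other PAPS synthase, differed by -0.37 (adjusted p = 0.329) on its probe 1340576 and by -0.25 (adjusted p = 0.528) on probe 106100731.

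Among the enzymes that start and lengthen the chain, Csgalnact1, which adds the first N-acetylgalactosamine, had 10.56 and 10.50 in WT cartilage. It had 9.92 and 9.63 in S1Pcko cartilage, below both WT arrays. The log2 difference was -0.76 (standard error 0.29, adjusted p = 0.163). Xylt1, the xylosyltransferase that starts the chain, was the only tested member with a positive value, 0.47 (95% interval -0.20 to 1.15, adjusted p = 0.433), with 6.24 and 6.09 in WT and 6.47 and 6.80 in S1Pcko. The polymerizing pair showed small differences. Chsy1, chondroitin synthase 1, had -0.12 (95% interval -0.60 to 0.37), and Chpf, the chondroitin polymerizing factor that works with it, had -0.30 (95% interval -0.79 to 0.18). Chst3, the 6-O-sulfotransferase, had 7.54 and 7.33 in WT and 7.35 and 7.25 in S1Pcko, overlapping, with a difference of -0.14 (95% interval -0.65 to 0.38, adjusted p = 0.804).

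**Figure D2:**
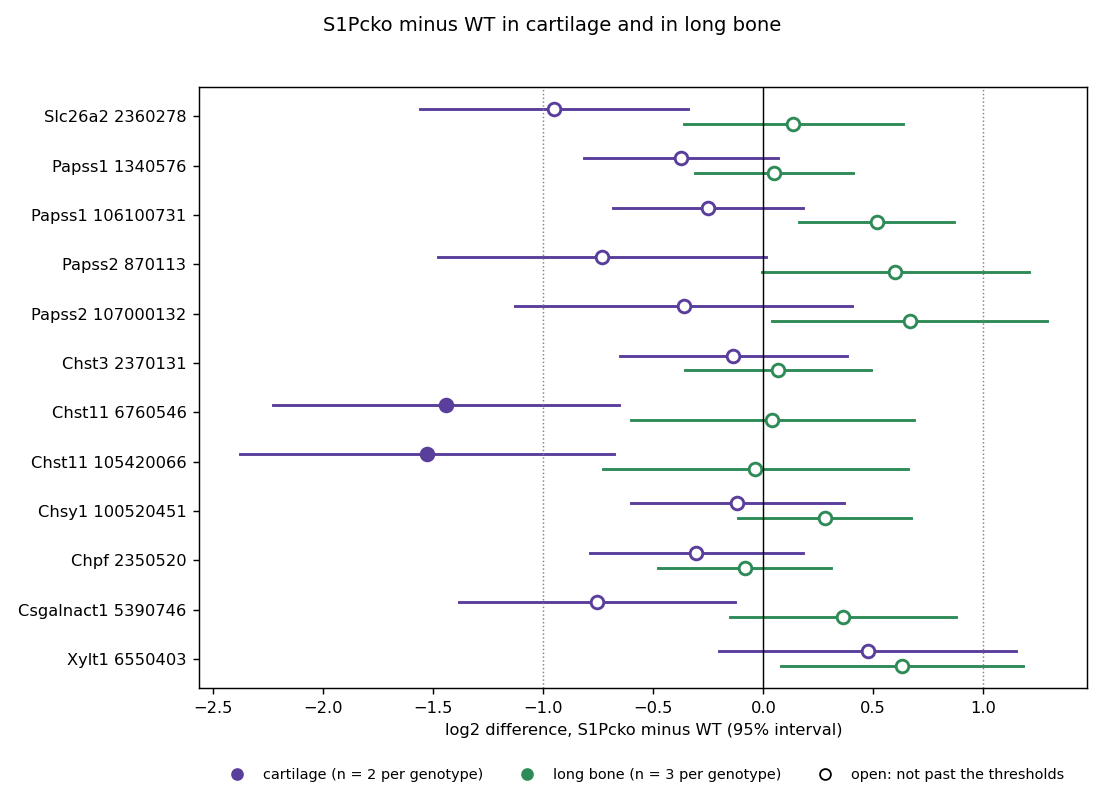
Log2 difference S1Pcko minus WT (x axis) of each tested probe (y axis) in cartilage (purple, n = 2 arrays per genotype) and long bone (green, n = 3), with the 95% interval of limma; filled points passed the thresholds and dotted lines mark 2-fold. The 2 Chst11 probes in cartilage, at -1.44 and -1.53, are the only filled points, and all 12 cartilage values lie to the left of the long bone value of the same probe.

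In entire long bones, none of the 12 probes passed the thresholds, where 1.03% of all tested probes were called in either direction. Of the 12 probes, 10 had a positive log2 difference, with a median of 0.21 beside 0.00 over all probes. At an unadjusted p under 0.05, 3 probes were higher in S1Pcko, beside 7.64% of all tested probes in that direction. They were Papss2 probe 107000132 (0.67, adjusted p = 0.305), Xylt1 (0.63, adjusted p = 0.269) and Papss1 probe 106100731 (0.52, adjusted p = 0.151). The last of them was the only one of the 12 probes without overlap, a pattern that 9.52% of all tested probes showed in this direction, with 6.07, 5.50 and 5.70 in WT and 6.15, 6.33 and 6.34 in S1Pcko, but the brighter Papss1 probe 1340576 had 0.05 (95% interval -0.31 to 0.41).

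Papss2 spread widely within both groups. On probe 107000132, WT long bone had 12.74 on array 1921 and 11.79 and 11.54 on arrays 1923 and 1929. S1Pcko long bone had 12.26 on array 1922 and 12.89 and 12.92 on arrays 1924 and 1930. The array of each genotype that stood apart in chondrocyte markers was thus also the one nearest to the other genotype. Without array 1921 the difference was 1.02 and passed the thresholds (adjusted p = 0.0314), beside 0.868% of all probes called higher in that fit. Without arrays 1921 and 1922 together, both Papss2 probes passed, at 1.24 (adjusted p = 0.00138) and 1.13 (adjusted p = 0.00494), beside 1.26% of all probes. WT long bone is then 1 extract amplified in 2 rounds, so that its spread is technical alone. By the marker levels above, the same may hold for arrays 1924 and 1930, which then make up S1Pcko long bone.

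Chst11 was not called in long bone. On probe 105420066 WT long bone had 8.87, 8.01 and 7.83 on arrays 1921, 1923 and 1929, and S1Pcko long bone had 7.59, 8.59 and 8.43 on arrays 1922, 1924 and 1930. The ranges overlapped and the difference was -0.04 (95% interval -0.73 to 0.66). On probe 6760546 it was 0.04 (95% interval -0.60 to 0.68). Csgalnact1 had 9.69, 8.78 and 8.83 in WT and 9.15, 9.61 and 9.62 in S1Pcko long bone, a difference of 0.36 (95% interval -0.15 to 0.87). Slc26a2 had 6.27, 5.50 and 5.46 in WT and 5.71, 6.17 and 5.75 in S1Pcko, a difference of 0.14 (95% interval -0.36 to 0.63). Chsy1 (0.28), Chst3 (0.07) and Chpf (-0.08) had 95% intervals that held 0.

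Whether the change differed between the tissues was tested with the interaction of genotype and tissue. All 12 probes had a negative value, meaning a lower change in cartilage than in long bone, but none passed the thresholds, where 0.341% of all tested probes did. At an unadjusted p under 0.05 there were 7 of 12 probes, beside 7.63% of all tested probes in this direction. They were both probes of Chst11 (-1.49 and -1.48, adjusted p = 0.215 and 0.192), both of Papss2 (-1.33 and -1.03), Csgalnact1 (-1.12, adjusted p = 0.211), Slc26a2 (-1.09, adjusted p = 0.21) and Papss1 probe 106100731 (-0.77). These 7 values come from 5 genes, and the probes of a gene share the same RNA.

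For the members, the outcome of this test turned on array 1921. Without it, calls over all probes rose from 81 to 448, and 1.15% of all probes were called in the direction of the members. Among the members 4 probes passed: Chst11 probe 6760546 (-1.83, adjusted p = 0.0327), Papss2 probe 870113 (-1.66, adjusted p = 0.0358), Csgalnact1 (-1.41, adjusted p = 0.0275) and Slc26a2 (-1.35, adjusted p = 0.0375). Leaving out array 1922 instead raised the calls over all probes to 430, with no member probe among them. Without arrays 1921 and 1922 together 6 probes passed, those of Chst11, Papss2, Csgalnact1 and Slc26a2, from -1.44 to -2.12. In that fit, with arrays picked after the data were seen, calls over all probes rose to 1203, with 2.55% of all probes in this direction. Array 1921 was the WT long bone array with the highest chondrocyte marker level, 99110 against 58100 and 61350, and the part of tissue content in this outcome was not tested. Without array 1921, WT long bone is again 1 extract amplified in 2 rounds. Without array 1922 as well, the same may hold for S1Pcko long bone.

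**Figure D3:**
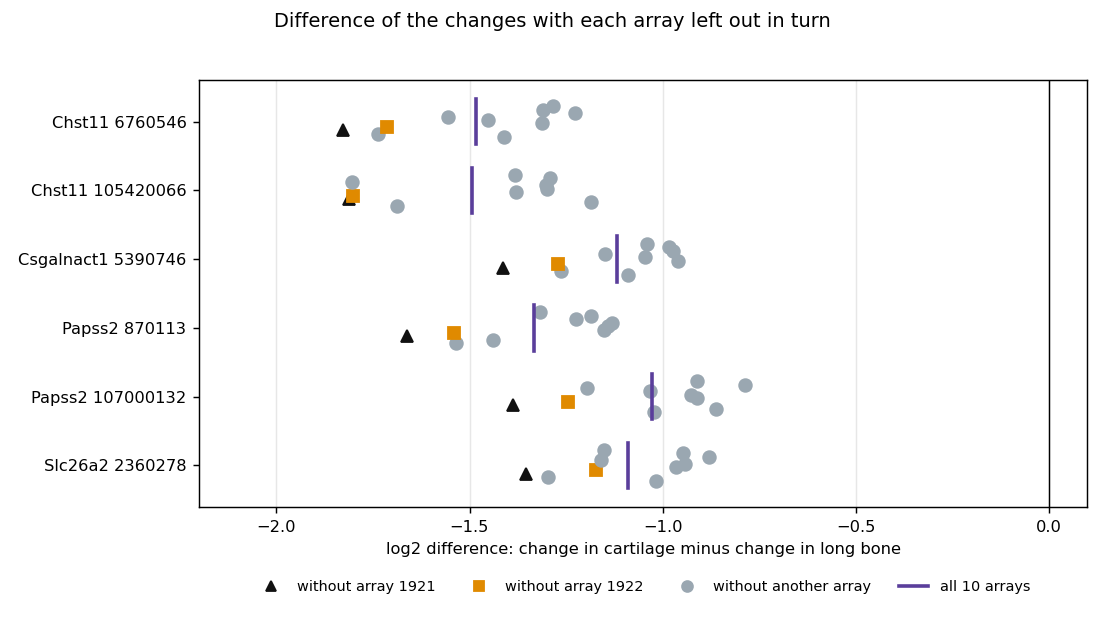
Log2 difference between the change in cartilage and the change in long bone (x axis) for the 6 probes of Chst11, Csgalnact1, Papss2 and Slc26a2 (y axis), with 1 point for each of the 10 arrays left out and a purple bar for all 10 arrays. All points lie below 0, and leaving out array 1921 (black triangles) gave the lowest value of each probe, down to -1.83 for Chst11 probe 6760546.

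Members also differed between the tissues of WT embryos. Between WT cartilage and WT long bone, 5 of 12 probes were called higher in cartilage, where 1.63% of all tested probes were called in this direction, and no member was called lower. In 9 probes both cartilage arrays were above all 3 long bone arrays, beside 21% of all tested probes. The median over the members' probes was 0.85, and 0.02 over all probes. The called probes were those of Chst11, Csgalnact1 and Papss2. Markers of bone differed between these tissues as well. Osteoblast markers summed to 45130 to 53860 in WT long bone, with 5 of 6 called lower in cartilage, and osteoclast markers to 2356 and 2604 in WT cartilage against 22080 to 25780 in WT long bone, with 6 of 6 called lower. The part of tissue content in the members' differences was not tested.

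Chst11 differed most, by 3.32-fold on both probes (log2 1.73, adjusted p = 0.0115 for probe 105420066 and 0.00805 for probe 6760546). Csgalnact1 was 2.70-fold higher in WT cartilage (log2 1.43, standard error 0.26, adjusted p = 0.00659). Papss2 was higher by 2.52-fold on probe 107000132 (log2 1.33, adjusted p = 0.0234) and by 2.56-fold on probe 870113 (log2 1.36, adjusted p = 0.0194). Slc26a2 passed the adjusted p (0.0329) at 1.97-fold, just under the fold threshold. Chst3 (0.72, adjusted p = 0.0581) and the Papss1 probes (0.59 and 0.60, adjusted p = 0.0659 and 0.0576) had values above 0 without overlap of the groups. For Chsy1 the difference was 0.00 (95% interval -0.44 to 0.44) and for Chpf 0.27 (95% interval -0.17 to 0.71), with overlapping groups in both. None of the 5 calls was kept without array 1919 or without array 1927, where WT cartilage is 1 array, with adjusted p values from 0.0531 to 0.122 and from 0.0619 to 0.165. The Papss2 probes 107000132 and 870113 also lost the call without array 1923 (0.0803 and 0.0699) and without array 1929 (0.0617 and 0.0567), and without array 1921 the Slc26a2 probe was called too (log2 1.24, adjusted p = 0.00346).

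For Papss2, RefSeq lists 2 starts, and both windows are shown since the array values do not say which start is used. They lie at chr19:32595465-32595764 and chr19:32619755-32620054, both on the + strand of GRCm38.p6.
Papss2 start 1: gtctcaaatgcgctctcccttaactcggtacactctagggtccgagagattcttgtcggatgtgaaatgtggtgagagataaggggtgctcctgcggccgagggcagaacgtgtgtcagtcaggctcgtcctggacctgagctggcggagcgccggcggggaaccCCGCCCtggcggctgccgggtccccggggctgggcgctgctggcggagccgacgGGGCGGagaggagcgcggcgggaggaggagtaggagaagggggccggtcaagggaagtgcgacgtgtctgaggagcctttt
Papss2 start 2: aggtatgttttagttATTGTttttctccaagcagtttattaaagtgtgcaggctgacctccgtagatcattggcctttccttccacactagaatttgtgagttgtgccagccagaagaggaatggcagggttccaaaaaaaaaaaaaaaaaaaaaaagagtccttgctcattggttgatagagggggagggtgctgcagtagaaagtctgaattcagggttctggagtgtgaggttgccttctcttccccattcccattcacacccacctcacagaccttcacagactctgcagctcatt

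Of the 10 members, 7 matched a promoter of RefSeq. Csgalnact1, Slc26a2 and Xylt1 are named only. Capitals mark matches on either strand to the GC box GGGCGG (reverse CCGCCC), the TATA-like TATANA, the SOX core ACAAT (reverse ATTGT), the sterol regulatory element TCACNCCAC and the stress element of CCAAT and CCACG with 9 bases between them. The last 2 are sites known for SREBP and ATF6, which S1P cleaves. Chst11 held 3 matches to GGGCGG and 2 overlapping matches to TATANA, Papss2 start 1 held 2 to GGGCGG and Papss2 start 2 held 1 to ACAAT. Over all 32851 promoters of this length, 35.7% held GGGCGG, 24.7% TATANA, 31% ACAAT, 1.2% TCACNCCAC and 0.1% the stress element. Of the other members, Chst3 and the second Papss1 start held 1 match each to TCACNCCAC. A match is a run of letters and not a measured site.

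In S1Pcko embryos, no member was called between cartilage and long bone. None of the 12 probes passed the thresholds, where 0.981% of all tested probes did in either direction. The median over the members' probes was 0.20. At an unadjusted p under 0.05 there was 1 probe, Chst3 (0.52, adjusted p = 0.28), beside 7.37% of all tested probes higher in cartilage. For Chst11 the difference was 0.24 and 0.25 on its probes (95% intervals -0.54 to 1.01 and -0.47 to 0.97). It was 0.31 for Csgalnact1 (95% interval -0.26 to 0.89) and 0.31 and 0.02 for Papss2 (95% intervals -0.39 to 1.00 and -0.66 to 0.70). Slc26a2 had -0.11 (95% interval -0.66 to 0.45). The difference between the tissue gaps of both genotypes is the interaction given above, which was not called. The gap of the chondrocyte markers was smaller in S1Pcko too, with a median of 0.15 beside 1.00 in WT. Their summed level on S1Pcko long bone arrays 1924 and 1930 (90340 and 91400) was near that of S1Pcko cartilage (91160 and 90770). Array 1922 was lower (66350). The part of tissue content in the members' gaps was not tested.

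**Figure D4:**
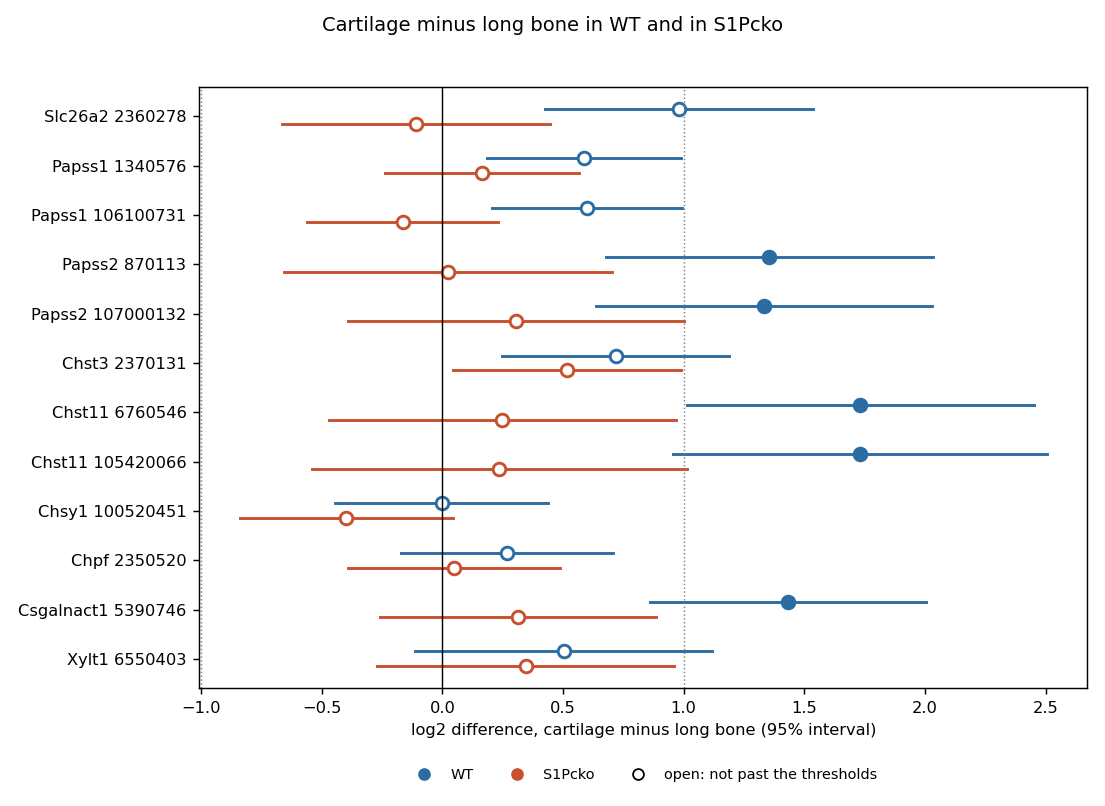
Log2 difference cartilage minus long bone (x axis) of each tested probe (y axis) in WT (blue) and in S1Pcko (red), with the 95% interval of limma; filled points passed the thresholds and dotted lines mark 2-fold. In WT the probes of Chst11, Csgalnact1 and Papss2 lie between 1.33 and 1.73 and are filled, and in S1Pcko they lie between 0.02 and 0.31 and are open.

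Calvaria, with 1 array per genotype, allow values and no test. Between the calvaria, none of the 12 probes differed 2-fold, where 1.18% of all tested probes did, and the S1Pcko minus WT values ran from -0.42 (Xylt1) to 0.28 (Papss2 probe 107000132). Chst11 had 7.03 in WT and 7.06 in S1Pcko calvaria on probe 105420066, and Csgalnact1 had 7.88 and 7.87. Against WT cartilage, 7 of 12 probes were at least 2-fold lower in WT calvarium, beside 5.47% of all tested probes. Those were the probes of Chst11 (7.66-fold and 7.81-fold), Papss2 (6.32-fold and 5.64-fold), Csgalnact1 (6.28-fold), Chst3 (3.27-fold) and Slc26a2 (3.05-fold). Chsy1 stood at 12.38 in WT calvarium and 12.32 in S1Pcko calvarium, within its range in the other tissues.

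Over the 6 groups, each of Chst11, Csgalnact1, Papss2 and Slc26a2 was highest in WT cartilage and lowest in calvaria. The same held for Chst3, with 7.44 in WT cartilage and 5.72 and 5.98 in WT and S1Pcko calvaria. It also held for Chpf over a narrower range, with 10.67, 10.27 and 10.03. For Chst11 probe 105420066 the means were 9.97 in WT cartilage, 8.44 in S1Pcko cartilage, 8.24 in WT long bone, 8.20 in S1Pcko long bone, 7.06 in S1Pcko calvarium and 7.03 in WT calvarium. The S1Pcko cartilage and the 2 long bone groups overlapped array by array, so their order is not resolved. For Csgalnact1 the order was WT cartilage at 10.53, S1Pcko cartilage at 9.77, S1Pcko long bone at 9.46, WT long bone at 9.10 and the calvaria at 7.88 and 7.87. The 2 long bone groups overlapped there, and array 1921 of WT long bone (9.69) lay within the range of S1Pcko cartilage. For Papss2 probe 107000132 the order was the same, with 13.36, 13.00, 12.69 and 12.02 before the calvaria at 10.98 and 10.70. S1Pcko cartilage and S1Pcko long bone overlapped there, and so did the long bone groups. For Slc26a2 the 3 groups after WT cartilage lay between 5.74 and 5.88.

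Chst11, Csgalnact1, Papss2 and Slc26a2 also followed the chondrocyte markers from array to array. Over the 12 arrays, Pearson r of log2 intensity with the log2 of the summed marker level was 0.96 for Papss2, 0.959 for Csgalnact1, 0.863 for Slc26a2 and 0.852 for Chst11, with the brightest probe of each gene. It was 0.833 for Chst3, 0.806 for Xylt1, 0.477 for Papss1, 0.44 for Chpf and 0.297 for Chsy1. The points are 12 arrays of 3 tissues, some of them amplifications of 1 extract, so the values describe these arrays and carry no test. At marker levels of 90340 to 91400, S1Pcko cartilage and the S1Pcko long bone arrays 1924 and 1930 had 8.13 to 8.75 for Chst11, while array 1921 at 99110 had 8.87 and WT cartilage at 106900 and 109700 had 9.78 and 10.16. Among themselves, Papss2 and Csgalnact1 (r = 0.964), Slc26a2 and Csgalnact1 (0.932) and Chst11 and Csgalnact1 (0.918) had the closest values. Chsy1 had r between -0.23 and 0.33 with the other members.

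**Figure D5:**
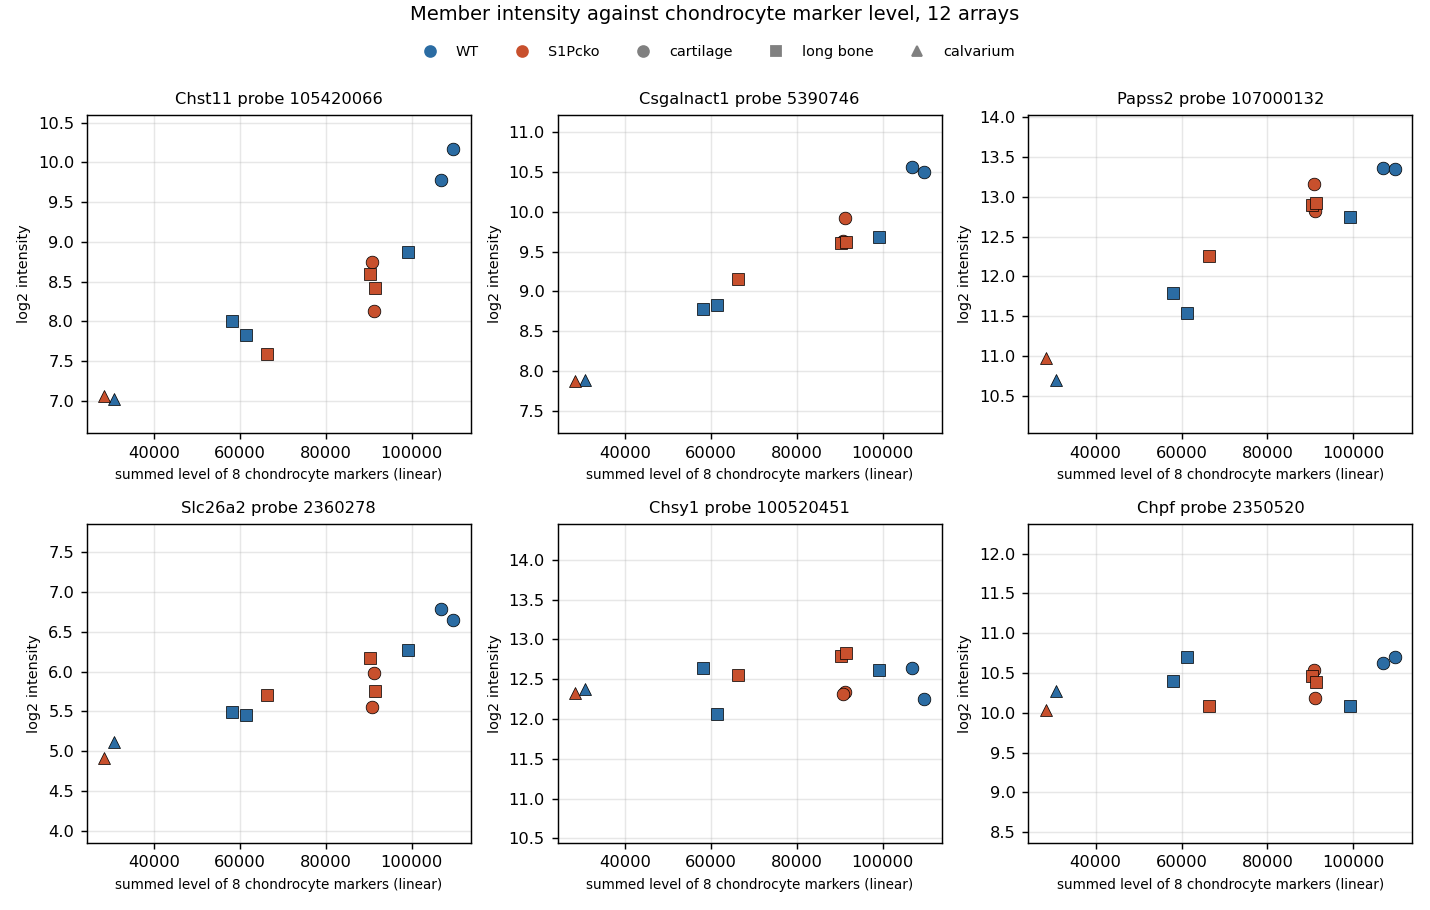
Normalized log2 intensity (y axis, all panels of the same range) of 6 member probes against the summed linear level of 8 chondrocyte markers (x axis), 1 point per array, blue for WT and red for S1Pcko, with circles for cartilage, squares for long bone and triangles for calvaria. Chst11, Csgalnact1, Papss2 and Slc26a2 rise from the calvaria to WT cartilage along the marker level, while Chsy1 and Chpf follow it less closely.

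Genes with the most similar profile over the 12 arrays were sought among 1836 candidates. These came from probes whose group means varied at least as much as was asked of the members (SD of 0.5). For Papss2 they were Sox9, the master factor of chondrocytes (Pearson r = 0.988), Mgat4a (0.983) and Acan (0.979). Acan is the aggrecan core protein that carries most of the chondroitin sulfate of cartilage. Its value here is that of probe 4760092, while the Acan changes given below are those of probe 430647. For Csgalnact1 they were Sox8, a relative of Sox9 (0.988), Ak4 (0.985) and Pgk1 (0.984). Chst11 was closest to 1700025G04Rik (0.978), Mia, a protein secreted by chondrocytes (0.974), and Meltf (0.969). Slc26a2 was closest to Hapln1, the link protein that fastens aggrecan to hyaluronan (0.965), Slc1a1 (0.965) and Plcb1 (0.96). Chst3 was closest to Gdf5, a growth factor of joints (0.944), Lpar4 (0.941) and Mab21l2 (0.937), and Xylt1 to Kif1b (0.937), C4b (0.927) and Ninj1 (0.925).

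The wider pathway was taken from 8 lists of 94 genes, of which 71 had a tested probe. In cartilage 2 were called lower in S1Pcko and none higher, beside 1.34% and 1.07% of all tested probes. The median was -0.14, beside 0.02 over all probes. In long bone 1 was called higher and 1 lower, beside 0.615% and 0.413% of all tested probes. No gene was called for the difference between the tissues. Between the WT tissues 5 were called higher in cartilage and 4 lower, beside 1.63% and 2.37% of all tested probes. Between the S1Pcko tissues 1 was called lower, beside 0.8% of all tested probes.

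Of the linker enzymes (6 of 6 tested), Pxylp1, the phosphatase that removes the phosphate from the linker xylose, fell in S1Pcko cartilage by 1.56 on the log2 scale (adjusted p = 0.00879). It had 13.15 and 13.11 in WT cartilage and 11.63 and 11.51 in S1Pcko cartilage. Without any 1 of the 4 cartilage arrays its adjusted p was 0.0732 (1919), 0.0668 (1927), 0.0507 (1920) or 0.0806 (1928). Of the other chondroitin and dermatan enzymes (6 of 11 tested), Chst12, another 4-O-sulfotransferase, fell by 1.13 (adjusted p = 0.0497). It had 8.39 and 8.73 in WT and 7.25 and 7.61 in S1Pcko cartilage, and the call held without array 1921 or 1922 but was lost without any 1 of the other 8 arrays (adjusted p from 0.0509 to 0.235) and with the replicate block (0.068). Of the 11 alternatives other than leaving out 1 array, 5 kept the call of Chst12. Over these alternatives its change ran from -1.21 to -0.91. Pxylp1 was also higher in WT cartilage than in WT long bone (log2 1.22, adjusted p = 0.0114).

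In the list of sulfate and nucleotide sugar supply (13 of 20 tested) no gene was called between the genotypes, and Gfpt2, an enzyme of hexosamine synthesis, was higher in WT cartilage than in WT long bone (log2 1.16, adjusted p = 0.02). Of the heparan sulfate enzymes (14 of 19 tested), Extl1 rose in S1Pcko long bone by 1.27 (adjusted p = 0.0408), with 8.32, 7.37 and 7.80 in WT and 8.49, 9.47 and 9.34 in S1Pcko, and the call held only without array 1921 or 1922 (adjusted p from 0.0654 to 0.186 without another array) and was lost with the replicate block (0.0826). The rise of Extl1 was called in 5 of the 11 alternatives other than leaving out 1 array, over which it ran from 1.03 to 1.82. Extl1 was also higher in WT cartilage than in WT long bone (log2 2.27, adjusted p = 0.00134). Of the keratan sulfate enzymes (5 of 6 tested) none was called in any comparison. Chst5 and B4galt1 had the largest values in cartilage, 0.29 and -0.16. Of the genes of hyaluronan synthesis and breakdown (6 of 7 tested), the hyaluronidase Cemip (-1.64, adjusted p = 9.57e-05) and the hyaluronan receptor Cd44 (-1.27, adjusted p = 0.00356) were lower in WT cartilage than in WT long bone, and none was called between the genotypes.

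Of the breakdown enzymes (9 of 12 tested), Arsb, the lysosomal sulfatase that removes the 4-sulfate, fell in S1Pcko long bone by 1.38 (adjusted p = 0.000327). It had 10.67, 10.71 and 10.98 in WT and 9.51, 9.47 and 9.23 in S1Pcko long bone, without overlap, and the call held without any 1 array but not with the first round alone (adjusted p = 0.152) or the amplifications averaged (0.144). Osteoclast markers (6 of 7 tested) were lower with it, from a summed level of 22080 to 25780 in WT to 7087 to 14880 in S1Pcko long bone. Other markers were lower there too. Those of macrophages and granulocytes had 3210 to 11870 in WT and 466.2 to 3066 in S1Pcko. Erythroid markers had 27590 to 28880 and 10760 to 16030. Hypertrophic chondrocyte markers had 20550 to 26920 and 9369 to 13440, and of the 4 tested only Mmp13 was called lower (-1.42). Osteoblast, skeletal muscle and endothelial markers overlapped between the genotypes. For skeletal muscle the overlap came from array 1922 (105400), while arrays 1924 and 1930 had 35080 and 36800 against 87160 to 96210 in WT. The part of these cells in the value of Arsb was not tested. In cartilage Arsb differed by -0.32 (adjusted p = 0.314), and it was lower in WT cartilage than in WT long bone (-1.43, adjusted p = 0.000305). Of the core proteins that carry the chains (12 of 13 tested), none was called between the genotypes, and Acan had -0.31 in cartilage (adjusted p = 0.774) and 0.55 in long bone (adjusted p = 0.561). Acan (1.74, adjusted p = 0.0276) and Col9a2 (1.36, adjusted p = 0.0282) were higher in WT cartilage than in WT long bone. Ptprz1 was lower there (adjusted p = 7.13e-05) and between the S1Pcko tissues (adjusted p = 0.00149), but it lay near the background in cartilage and was detected on 1 of 2 WT cartilage arrays. It had 5.08 and 4.87 in WT cartilage and 6.67 to 6.86 in WT long bone, and without background correction the differences were -0.91 and -0.69, short of 2-fold. Of these tissue calls, Gfpt2, Pxylp1, Acan and Col9a2 were lost without array 1919 or 1927 (adjusted p from 0.0802 to 0.191), and Gfpt2, Acan and Col9a2 also without array 1923 or 1929 (from 0.0565 to 0.0929).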

How the data were processed

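The authors deposited 46643 probe signals per array as intensity, neither background-subtracted nor normalized, each with a detection p-value per the file headers. The authors also deposited processed intensity values on a linear scale, used as an alternative with a floor of 16. RNA had been amplified and labelled as biotinylated cRNA; the bead summary software is not given in the sources used here. Signals of 12 arrays were corrected and quantile normalized with neqc (offset 16; limma 3.58.1, R 4.3.3), which takes the background from the detection p-values. Probes detected (p under 0.05) on at least 2 of 10 cartilage and long bone arrays were fitted with limma to 4 groups (6 residual degrees of freedom, prior 5.13), after the 2-way ANOVA, 5% FDR and 2-fold threshold of the methods, with Benjamini-Hochberg adjustment over 23744 probes. Calvaria entered the normalization and had no test. A gene of a list is given by its brightest tested probe, and marker levels are sums of 2 to the power of these values.

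The members and all lists were chosen with earlier results of these data known. All members are named; of the other lists, genes past the thresholds in a comparison, or otherwise the 2 with the largest change in cartilage, and for members with an SD of group means of at least 0.5 the 3 genes of highest correlation. Probe names follow GEO's platform annotation (32794 probes with 1 symbol, 55 with several and 13794 with none listed), and sequences and coordinates are RefSeq's on GRCm38.p6. The fitting code was tested on simulated data. Alternatives covered the authors' values, background correction, scaling, the filter, the fitted arrays, array weights, a replicate block, the amplification rounds and leaving out each array, plus arrays 1921 and 1922 together, chosen after the data were seen.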

Additional observations from a re-analysis of the deposited data

How the results depend on the processing

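The 2 Chst11 probes called there became 0 with the authors' processed values, with no filter, with the replicate block, with the amplifications averaged and in the first round by itself, and between 0 and 2 were called with an array left out. In long bone the count of 0 became 2 without arrays 1921 and 1922 together and lay between 0 and 1 with an array left out. The difference between the tissues went from 0 to 1 with array weights and to 6 without both arrays, and from 0 to 4 with an array left out. For WT cartilage against WT long bone the 5 calls became 3 with no filter and 0 with the first round alone or the amplifications averaged, and lay between 0 and 6 with an array left out. The count of 0 between the S1Pcko tissues was the same throughout. No called value changed its direction. The fits of 1 amplification round and of averaged amplifications leave 1 array per genotype in cartilage, whose spread is assumed to be that of the long bone arrays.

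Over all probes, the 572 calls in cartilage were 258 without background correction, 14 in the first round alone, 17 with the amplifications averaged and 277 to 634 with an array left out. In long bone 244 calls became 113 without background correction, 453 with array weights and 721 without both arrays, and for the difference 81 became 398 with array weights, 40 with the replicate block and 1203 without both arrays. The 950 calls between the WT tissues became 420 without background correction, and the 233 between the S1Pcko tissues became 101. With the replicate number of the labels as a block, 556 and 213 probes were called in cartilage and long bone, and the Chst11 probes had adjusted p values of 0.0698 and 0.0636. Deviations of arrays of the same number correlated at 0.466 in cartilage and 0.023 in long bone, where the numbers follow the amplification round. Dim probes such as those of Slc26a2, Xylt1 and Papss1 106100731 lie near the background, where fold changes are compressed.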
